A study of Mus musculus with 4 samples.

Results

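The cytosolic ribosome is built from a large and a small subunit, each a set of proteins on ribosomal RNA. Described here are the genes for those proteins and their close copies in a mouse pre-B cell line. Members were the gene symbols that begin with Rpl or Rps and a digit, together with Rplp0, Rplp1, Rplp2 and Rpsa. Symbols of the S6 kinase family and symbols marked as pseudogenes were left out. The rule took 86 of the 23420 symbols in the count tables and used no measured value. Of these, 77 encode core ribosomal proteins, 46 of the large subunit and 31 of the small subunit. A further 8 are paralogs, copies or relatives of a core gene with a symbol of their own (Rpl3l, Rpl7l1, Rpl10l, Rpl22l1, Rpl36al, Rpl39l, Rps27l and Rps4y2). The last symbol, Rps19bp1, matches the rule by its letters but encodes a protein that binds Rps19 and is no part of the ribosome. The core protein Fau falls outside the rule by its name and is given with the related genes.

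RNA was sequenced from large pre-B cells, B cell precursors that proliferate in response to IL-7 and to a first form of their antigen receptor. The line lacked both Irf4 and Irf8 (Irf4/8-/-) in every library, it was kept on the stromal feeder line OP9, and no control with intact alleles was analysed here. In the libraries labelled shMyb, the cells had received a retrovirus with a GFP reporter and a short hairpin RNA against Myb, a transcription factor of blood progenitors. In the libraries labelled shLuc, the hairpin was directed at luciferase as a control. Both were sorted as GFP+ cells after 72 hours in medium with 10 ng/ml of IL-7, with 2 libraries each, from duplicate sets of 12 wells of this line. P-values therefore measure the spread between duplicate sets of wells and not between animals or lines.

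Each of the many ribosomal proteins is made in proportion to its partners, because a ribosome lacking 1 of them is often not completed and surplus protein is degraded. The messengers of these genes begin with a run of pyrimidine bases, the terminal oligopyrimidine (TOP) tract, through which the kinase mTOR and the RNA-binding protein LARP1 adjust their translation. Their transcription is high in dividing cells, and MYC is known to raise it. Early B cells pass through a rapidly dividing large pre-B stage before they become small and resting.

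The targeted transcript checks the labels. Myb stood at 617 and 639 CPM (counts relative to the scaled library total) in the libraries labelled shMyb, against 616 and 600 CPM in those labelled shLuc. The groups differed by 0.05 on the log2 scale and the difference was not called (edgeR quasi-likelihood test, Benjamini-Hochberg adjusted p = 0.283, called below 0.05). Myb was called higher, at 0.11 to 0.16, when libraries were scaled by totals alone or trends with abundance or with length and GC content were removed. Counts do not measure protein, and all directions given compare libraries by their labels, not by a measured loss of Myb transcript. Total counts were 38318335 and 36573743 in shMyb and 40701550 and 44682954 in shLuc. Of 12610 genes tested, 62.2% were called, 31.7% lower and 30.6% higher in shMyb. Of those calls 50.9% were lower, and 39.9% when libraries were scaled by totals alone. The summed level of 10 large pre-B markers was 7570 to 7812 CPM in shMyb and 7943 to 8099 CPM in shLuc, with 5 called lower and 4 higher. Markers of OP9 stroma summed to 115 to 119 CPM in shMyb and 70.5 to 87.3 CPM in shLuc. Of the 10 tested, 3 were called lower and 2 higher, and Thy1 alone made 58.7 to 62.5 CPM in shMyb and 11.7 to 12.9 CPM in shLuc. Myeloid markers summed to 8.13 to 9.82 CPM in shMyb and 3.86 to 4.75 CPM in shLuc, with 4 of 8 tested called higher and Elane at 0. T cell markers summed to 111 to 118 CPM in shMyb and 97.0 to 99.1 CPM in shLuc, nearly all of it Lck, with Cd4 and Cd8a at 0. The part of such cells in the results was not tested, and in bulk RNA fewer cells of a type and less RNA per cell cannot be told apart.

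The sequences around the annotated start sites of the genes that stand at the edges of the results are shown first. They are Rps15a, Rpl27 and Rps16, the core genes with the lowest fold changes, the paralogs Rps27l and Rpl22l1 with their core partners Rps27 and Rpl22, and Rpl3l, the gene called higher. Each line gives 50 bases before and 20 from the start, 5′ to 3′ on the gene's strand, from RefSeq on GRCm38.p6, with the longest run of pyrimidines in capitals.

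Rps15a: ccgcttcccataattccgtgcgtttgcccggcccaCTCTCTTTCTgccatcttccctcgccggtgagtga
Rpl27: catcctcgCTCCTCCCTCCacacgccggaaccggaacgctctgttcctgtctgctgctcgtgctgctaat
Rps16: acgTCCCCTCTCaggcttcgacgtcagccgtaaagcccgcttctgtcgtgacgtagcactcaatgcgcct
Rps27l: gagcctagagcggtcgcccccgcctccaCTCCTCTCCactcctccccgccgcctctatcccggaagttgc
Rps27: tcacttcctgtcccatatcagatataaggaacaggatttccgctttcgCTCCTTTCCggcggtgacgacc
Rpl22l1: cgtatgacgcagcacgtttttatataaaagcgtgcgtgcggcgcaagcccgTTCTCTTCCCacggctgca
Rpl22: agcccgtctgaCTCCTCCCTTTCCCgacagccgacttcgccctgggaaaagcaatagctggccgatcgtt
Rpl3l: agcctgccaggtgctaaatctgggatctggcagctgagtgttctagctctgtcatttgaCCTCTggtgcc

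These lie at chr7:118116128-118116197 (minus strand, Rps15a), chr11:101442195-101442264 (plus, Rpl27), chr7:28350639-28350708 (plus, Rps16), chr9:66946036-66946105 (plus, Rps27l), chr3:90213629-90213698 (minus, Rps27), chr3:28805458-28805527 (plus, Rpl22l1), chr4:152325676-152325745 (plus, Rpl22) and chr17:24727776-24727845 (plus, Rpl3l), each across the promoter and the first bases of the gene. The run is 9 to 14 bases long in the first 7 of these genes and 5 bases long in Rpl3l. In Rpl22l1 it begins directly after the annotated first base, in Rps27 it begins 2 bases upstream, and in Rps15a 15 bases upstream. Relative to the start, it begins at -22 in Rps27l, -39 in Rpl22, -42 in Rpl27 and -47 in Rps16. The runs of Rps15a and of these genes thus lie wholly before the annotated start, outside the annotated messenger, and are not TOP tracts by that start. Of the 77 core genes, 57 have such a window in the table. A run of 8 or more C or T lay between 50 bases before and 20 bases from the start in 35 of the 57 (61.4%). It lay there in 30.7% of the 9326 tested genes with a window and in 31.1% of 27025 genes of the same table. The run was sought anywhere in that stretch and not at the first base. It therefore does not measure a TOP tract, and genes without it are not genes without a TOP tract. The motif CCGGAAG, the binding core of ETS factors, stood on either strand of the 300-base window in 42.1% of the core genes, in 20.3% of tested genes and in 9.93% of all genes of the table. The E-box CACGTG, the site of MYC and its relatives, stood in 10.5% of core genes, 11.8% of tested genes and 8.09% of all genes. The MYB core AACNG stood in 78.9% of core genes, 81.1% of tested genes and 82.4% of all genes. None of these 3 motifs contains another, and a match is a description of letters, not of binding. The median log2 fold change was -0.32 in the 34 tested core genes with a pyrimidine run and -0.32 in the 22 without one. It was -0.23 in the 6 core genes with the E-box and -0.32 in the 50 without it. Those 6 ran from -0.40 to -0.20. For CCGGAAG the median was -0.32 in the 23 core genes with the motif and -0.32 in the 33 without it. For the MYB core it was -0.32 in the 44 core genes with it and -0.36 in the 12 without it.

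Core ribosomal protein messengers were lower in the libraries labelled shMyb almost without exception. Of 76 core genes tested, 74 fell, none rose and 2 were not called, against 31.7% of all tested genes called lower. The median log2 fold change was -0.32 in core genes, with quartiles at -0.36 and -0.27, against 0.0048 in all tested genes. Both shMyb libraries lay below both shLuc libraries in 75 of the 76, against 41.2% of all tested genes. The core genes with the highest mean CPM, which also grows with length, were Rpl4, Rplp0, Rpsa, Rpl7 and Rps2, and all 5 fell. Rpl4, whose loop lines the exit tunnel of the nascent chain, had 2680 and 2578 CPM in shMyb, against 3026 and 3117 CPM in shLuc. Rpsa, a small subunit protein that also serves as a laminin receptor, had 2034 and 1883 CPM in shMyb, against 2364 and 2453 CPM in shLuc. Rpl7 had 1714 and 1638 CPM in shMyb, against 2088 and 2189 CPM in shLuc, and Rps2 had 1704 and 1620 CPM in shMyb, against 2059 and 2130 CPM in shLuc. In each of these genes the groups were separated, and the log2 fold changes were -0.22 in Rpl4, -0.30 in Rpsa, -0.35 in Rpl7 and -0.33 in Rps2. Per kilobase of coding sequence Rpl41, the smallest ribosomal protein, came first, at 7924 CPM in shMyb and 9891 CPM in shLuc.

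Abundant genes outside the family also leaned downward, so the core genes are set beside genes of like level. Of 548 non-member genes at 300 CPM or more, 52% were called lower and 21.5% higher, with a median log2 fold change of -0.09. Between 300 and 600 CPM the median was -0.32 in 17 core genes and -0.08 in 382 other genes. Between 600 and 1000 CPM it was -0.32 in 26 core genes and -0.11 in 119 others. Between 1000 and 2000 CPM it was -0.32 in 25 core genes and -0.19 in 31 others. At 2000 CPM or more it was -0.30 in 3 core genes and -0.15 in 16 others, and between 100 and 300 CPM it was -0.44 in 2 core genes and -0.05 in 1935 others. In each range the core genes had the lower median, and the distance to the other genes was smallest between 1000 and 2000 CPM. With a smooth trend against abundance removed from each library, the core median was -0.21, and 76 of the 83 tested members were called lower. With a narrower smooth, added after these values were seen, it was -0.19, with 73 called lower. Fitted without the members, the 2 smooths gave -0.25 and -0.23, with 79 and 78 called lower.

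**Figure D1:**
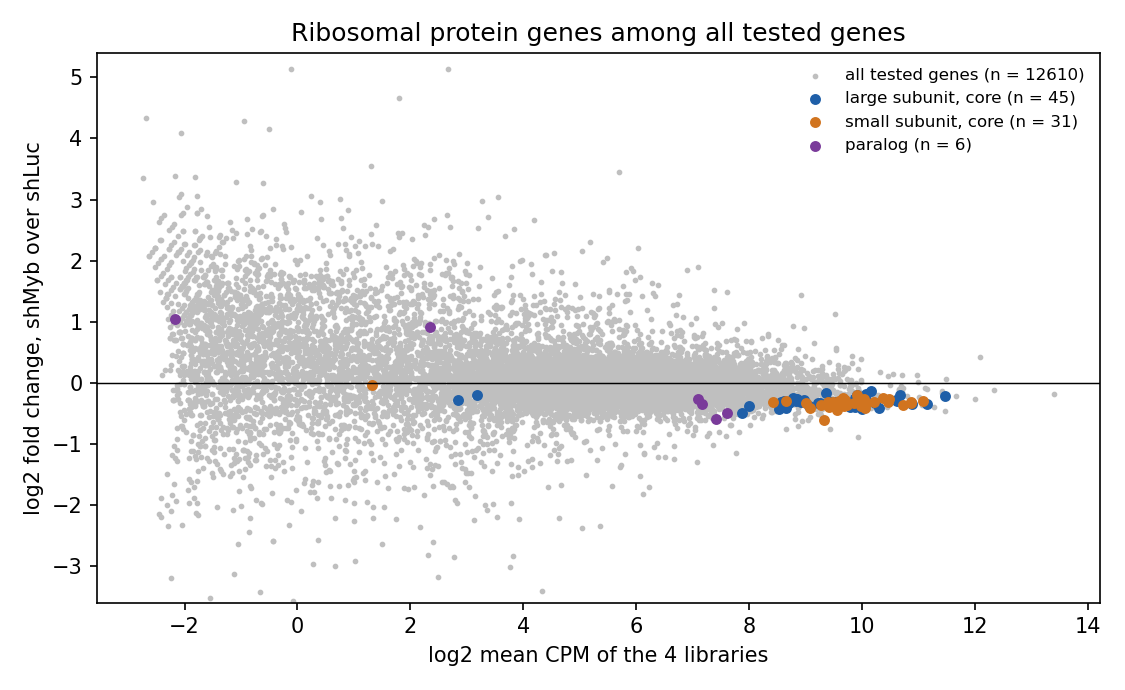
Log2 fold change (shMyb over shLuc, y axis) against log2 mean CPM (x axis) for the tested genes, with large subunit core genes in blue, small subunit core genes in orange and paralogs in purple. All core genes at high abundance lie below 0 in a narrow band, 3 core genes lie far to the left of it, and the paralogs Rpl3l and Rps4y2 lie above 0 at low abundance; 3 other genes fall outside the plotted range.

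Large and small subunit genes fell alike. Of 45 large subunit genes tested, 44 fell and 1 was not called, and of 31 small subunit genes 30 fell and 1 was not called. Among all tested genes 31.7% were called lower. The median log2 fold change was -0.32 in both. Large subunit messengers took 3.57% ± 0.0306 of all counts in shMyb and 4.22% ± 0.105 in shLuc (SD, n = 2 each). Small subunit messengers took 2.73% ± 0.0275 in shMyb and 3.28% ± 0.0789 in shLuc. All 86 members took 6.40% and 6.32% of counts in shMyb, against 7.44% and 7.70% in shLuc, so the share in shMyb was 0.840 times that in shLuc. With 2 libraries a group an exact permutation test, two-sided, cannot give a p below 0.333, and each of these shares gave that value. Summed per kilobase of coding sequence, large over small subunit messengers stood at 1.33 and 1.34 in shMyb and 1.31 and 1.31 in shLuc. By these sums the balance of the 2 subunits differed by a factor of 1.01 between the groups, while the summed level differed by far more. The median level per kilobase over large subunit genes in shMyb was 0.826 times that in shLuc. Over small subunit genes it was 0.782 times.

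**Figure D2:**
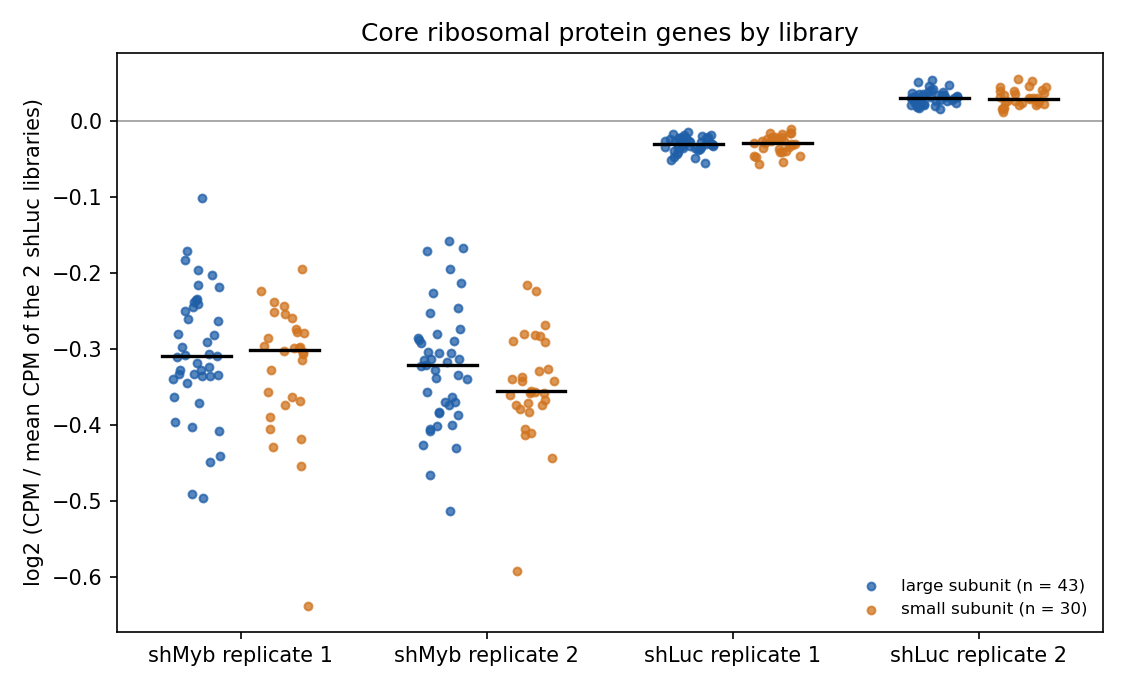
Log2 of each core gene's CPM over its mean CPM in the 2 shLuc libraries (y axis), in each library (x axis), for the 73 core genes at 100 CPM or more; points are genes, blue for the large and orange for the small subunit, and bars are medians. Every gene lies below 0 in both shMyb libraries, and the spread among genes within shMyb is wider than the gap between the 2 shLuc libraries.

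Protein families with a bacterial counterpart and families without one gave like values, leaving aside Rplp1 and Rplp2. All 32 tested genes of the first kind fell (median log2 fold change -0.33), and of 42 genes of the other kind 40 fell and 2 were not called (median -0.32). The 4 core genes on the X chromosome (Rpl10, Rpl36a, Rpl39 and Rps4x) all fell, with a median of -0.33. Beside these counts, 74 of all 76 tested core genes fell, and 31.7% of all tested genes were called lower.

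Genes of the functional centres of the large subunit all fell where tested, and so did 44 of the 45 tested genes of that subunit. Of all tested genes 31.7% were called lower. The stalk is the arm that recruits the elongation factors. Its base protein Rplp0 had 2075 and 1922 CPM in shMyb, against 2480 and 2596 CPM in shLuc, and its tip protein Rplp1 had 1118 and 1042 CPM in shMyb, against 1391 and 1485 CPM in shLuc. In both the groups were separated by more than the gap between duplicates, and the log2 fold changes were -0.34 in Rplp0 and -0.41 in Rplp1. The partner Rplp2 (-0.35) and Rpl12 (-0.27), which binds the foot of the stalk, fell too. Rpl5 and Rpl11 travel with 5S ribosomal RNA into the large subunit and, when free, bind the p53 regulator Mdm2. Rpl5 had 806 and 826 CPM in shMyb, against 1049 and 1090 CPM in shLuc, and Rpl11 had 664 and 663 CPM in shMyb, against 806 and 839 CPM in shLuc. Their log2 fold changes were -0.39 ± 0.0380 in Rpl5 and -0.31 ± 0.0373 in Rpl11 (SE). The 6 genes around the peptidyl transferase centre and tunnel wall (Rpl3, Rpl4, Rpl8, Rpl10, Rpl17 and Rpl39) all fell, with a median of -0.32. The rim of the exit tunnel, where chaperones and the signal recognition particle dock, had 4 tested members (Rpl19, Rpl23a, Rpl31 and Rpl35), which all fell at a median of -0.25.

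In the small subunit, the genes along the path of the messenger fell as well, and so did 30 of the 31 genes of that subunit. Of all tested genes 31.7% were called lower. The 3 genes of the messenger entry site (Rps2, Rps3 and Rps9) had a median log2 fold change of -0.33, the 3 of the exit site (Rps14, Rps26 and Rps28) -0.32, and the 10 of the head -0.35. At the decoding site Rps23, which reaches into the centre, was at -0.40, and Rps15, which sits nearby, at -0.21. Rps6, the substrate of the S6 kinases below mTOR, had 652 and 634 CPM in shMyb, against 785 and 823 CPM in shLuc. Rps27a, which is made as a fusion with ubiquitin and so also supplies that protein, had 718 and 714 CPM in shMyb, against 921 and 941 CPM in shLuc. Both fell, with log2 fold changes of -0.32 in Rps6 (edgeR adjusted p = 8.12e-08) and -0.38 in Rps27a (3.31e-09).

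Loss of 1 copy of certain ribosomal protein genes causes Diamond-Blackfan anaemia in humans, a failure of red cell production. A list of 11 such genes was used, which does not hold every member linked to the disease. Of these, 10 were tested and all fell, with a median of -0.34. Among core genes as a whole 74 of 76 tested fell, at a median of -0.32. The share called lower was 31.7% over all tested genes. Rps19, the gene most often affected in patients, had 728 and 754 CPM in shMyb, against 863 and 898 CPM in shLuc, a log2 fold change of -0.25. Others ran from Rpl35a (-0.42) and Rps10 (-0.41) through Rpl15 (-0.38), Rps24 (-0.29) and Rps26 (-0.29) to Rps7 (-0.28). Rpl26, also of that list, was not tested for lack of counts. Rps27, which has also been linked to the disease but is not in the list, was not called.

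Single core genes lay above and below the common median. The SD of the log2 fold change over core genes was 0.0831, and the median SE of a gene was 0.0386. Rps15a, a small subunit protein that contacts the central part of its ribosomal RNA, was the lowest. It had 501 and 517 CPM in shMyb, against 750 and 808 CPM in shLuc, a log2 fold change of -0.61 ± 0.0400 (SE, adjusted p = 1.66e-12). Its 2 groups lay far apart, and its 95% interval of -0.69 to -0.54 did not reach the core median. The gene was picked as the lowest in these same libraries, so the interval is no test of its distance from that median. Rpl27 of the large subunit had 196 and 193 CPM in shMyb, against 272 and 280 CPM in shLuc, a log2 fold change of -0.50. Rps16, whose tail reaches the transfer RNA in the decoding centre, had 638 and 643 CPM in shMyb, against 846 and 903 CPM in shLuc, a log2 fold change of -0.45. Then came Rpl9 (-0.43), Rpl39 (-0.43), Rps12 (-0.42), Rpl35a (-0.42) and Rplp1 (-0.41).

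Other core genes fell less than the median. Rpl23a, a docking site at the tunnel exit, was at -0.17, Rpl21 at -0.19, Rpl13a, which also takes part in silencing of messengers after interferon in human cells, at -0.20, Rps15 at -0.21 and Rpl19 at -0.21. These 5 were called lower in the edgeR test, with adjusted p from 4.16e-05 to 0.000296. With the broad abundance trend removed, Rpl21 (-0.06), Rpl13a (-0.03) and Rpl4 (-0.02) were not called, and with the narrow one Rps15, Rpl23a and Rpl19 were not called either. Rpl38, a large subunit protein needed for Hox gene translation in mice and 1 of the tested core genes with the lowest CPM, had 224 and 219 CPM in shMyb, against 285 and 295 CPM in shLuc (-0.39).

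**Figure D3:**
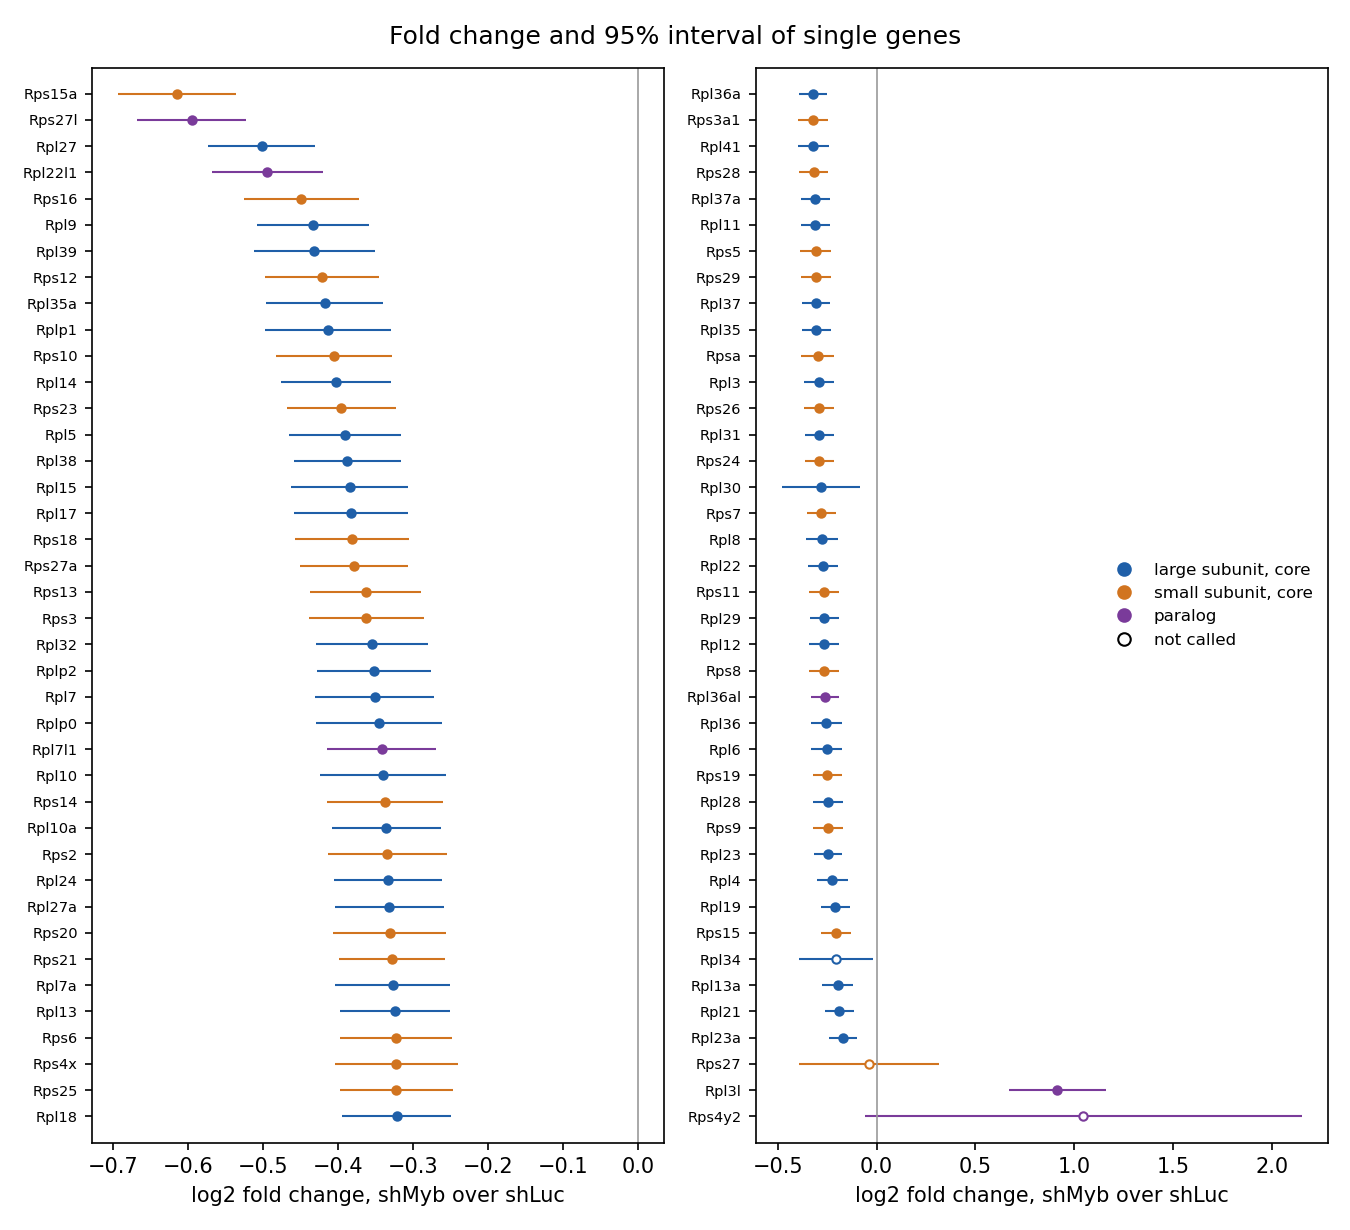
Log2 fold change (shMyb over shLuc, x axis, with a wider range in the right panel) of the ribosomal protein genes and paralogs reported singly, ordered from the lowest; points are estimates, bars are 95% intervals, colours give the class and open points were not called. Rps15a stands lowest at -0.61, most core genes lie between -0.45 and -0.20, and Rpl3l stands apart above 0. The estimate of Rps4y2 is also above 0 but was not called, and its 95% interval of -0.06 to 2.15 holds 0.

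The order of the core genes was seen again in separate pairs of libraries. Over the 73 core genes at 100 CPM or more, the log2 ratio of shMyb replicate 1 to shLuc replicate 1 and that of shMyb replicate 2 to shLuc replicate 2 had Pearson's r of 0.80 and Spearman's rho of 0.74 across genes. The other pairing of the 4 libraries gave 0.77 and 0.69. Genes are not independent replicates, and abundance and sequence are shared by both axes, so these are descriptions. All 73 genes were below 0 in each of the 4 pairs. In Rps15a the 4 ratios ran from -0.69 to -0.54. The size of the common difference did move with the library. Replicate 2 was above replicate 1 in all 73 genes within shLuc, by a median of 0.06 on the log2 scale. Within shMyb it was below in 48 genes and above in 25, with a median of -0.02. The median core fold change was -0.36 without shLuc replicate 1 and -0.29 without shLuc replicate 2.

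**Figure D4:**
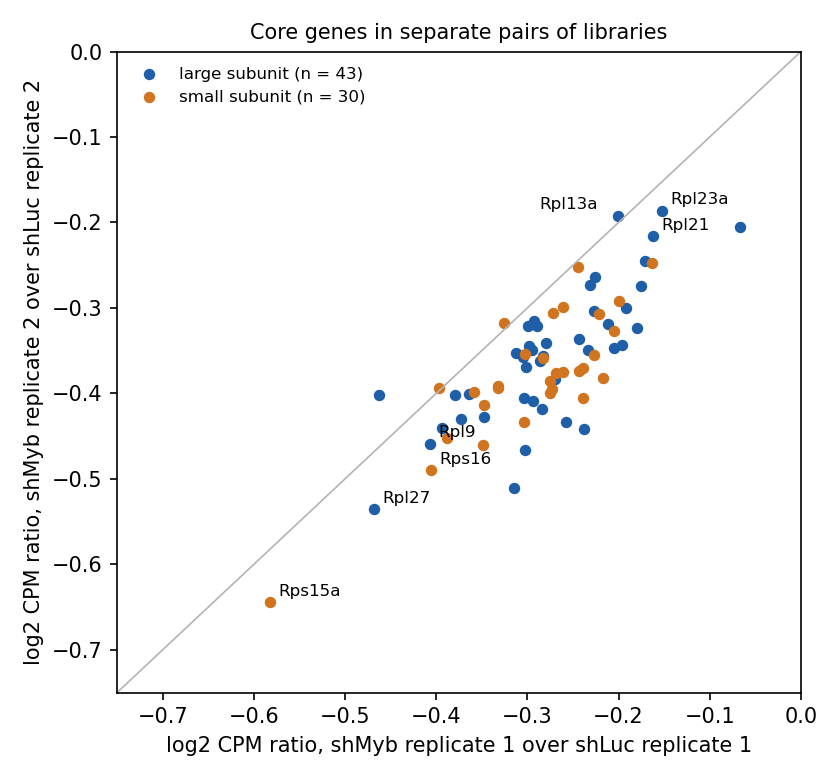
Log2 CPM ratio of shMyb replicate 2 over shLuc replicate 2 (y axis) against that of shMyb replicate 1 over shLuc replicate 1 (x axis) for the 73 core genes at 100 CPM or more, large subunit in blue and small subunit in orange; the line marks equal values. Rps15a is lowest on both axes, and most genes lie below the line, at medians of -0.36 for the second pair and -0.28 for the first.

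The fold change had little relation to simple properties of the core genes. Across the 73 genes, Spearman's rho with the fold change was 0.11 for coding length, 0.22 for GC content of the transcript, 0.21 for mean CPM and -0.04 for the share of the gene's sequence found in other genes. For mean CPM it was -0.27 across all tested genes. The genes share their libraries, and these values are descriptions.

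Ribosomal protein genes have many pseudogenes, so reads can be split or lost. The share of 50-base windows of each gene that also occur in another annotated gene was therefore computed from GENCODE M21. In the 22 core genes with under 25% of windows shared, 21 fell, at a median log2 fold change of -0.31. In the 21 with 50% or more shared, all fell, at a median of -0.32. Of all tested genes 31.7% were called lower. Rps15a shared 5.35% of its windows and Rps18 79.4%, and both fell. The part of shared sequence in the fold changes was not tested.

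A group of 4 core genes had far fewer counts than their partners. Per kilobase of coding sequence, Rpl27, the next lowest, stood at 474 CPM in shMyb and 671 CPM in shLuc. On that scale Rpl34 stood at 24.0 CPM in shMyb and 27.6 CPM in shLuc. Rpl30 stood at 18.7 CPM in shMyb and 22.7 CPM in shLuc, and Rps27 at 9.73 CPM in shMyb and 9.96 CPM in shLuc. Rpl26 had 1 count in shLuc replicate 1 and none in the other 3 libraries, where 3 counts, the most that a count of 0 allows, would be 0.0688 to 0.0799 CPM, a limit for counting error alone. All 4 are counted among the core proteins of the mammalian ribosome, and Rps27 has the close relative Rps27l. Shared windows made up 44.0% of Rpl26, 46.2% of Rps27, 22.5% of Rpl30 and 11.0% of Rpl34. They made up 85.5% of Rpl36a, which had 12660 to 18648 counts in a library. The part of shared sequence in these counts was not tested. How the annotation and counting treated these 4 genes is not given in the sources used here, so their values are uncertain.

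Among those low genes, Rpl30 had 6.26 and 6.76 CPM in shMyb, against 7.83 and 7.99 CPM in shLuc, and was called lower (-0.28, adjusted p = 0.0178). Its call was lost without shMyb replicate 1 (adjusted p = 0.120), without shLuc replicate 2 (0.0908), with DESeq2 (0.150), with library totals (0.0658) and with a length and GC trend removed (-0.13, 0.234). Rpl34 had 7.65 and 9.32 CPM in shMyb, against 9.98 and 9.55 CPM in shLuc, and was not called (-0.20, adjusted p = 0.0684). It was called lower without shMyb replicate 2 (-0.35), without a filter on low counts (-0.22), with the crossed replicate block (-0.21) and with either abundance trend removed (-0.30 with the broad one). Rps27 had 2.51 and 2.45 CPM in shMyb, against 2.30 and 2.78 CPM in shLuc, and the groups overlapped. Its log2 fold change of -0.04 had a 95% interval of -0.39 to 0.32, which holds both 0 and the core median.

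The paralogs did not move as 1 group: of 6 tested, 4 fell, 1 rose and 1 was not called. Of all tested genes 31.7% were called lower and 30.6% higher. Both shMyb libraries lay above both shLuc libraries in Rpl3l and Rps4y2, 2 of the 83 tested members, against 41% of all tested genes. Rps4y2 passed the filter on low counts only through the shMyb libraries, which favours this direction, so its separation is no support. Rps27l, the close relative of Rps27 and a p53 target in human cells, had 134 and 139 CPM in shMyb, against 203 and 209 CPM in shLuc. Its log2 fold change of -0.60 (SE 0.0369, adjusted p = 6.43e-13) was close to that of Rps15a. Rpl22l1, the paralog that can take the place of Rpl22, had 157 and 166 CPM in shMyb, against 225 and 230 CPM in shLuc. It fell by 0.49 (SE 0.0377, adjusted p = 3.63e-11), while Rpl22, which developing T cells need in mice, had 426 and 406 CPM in shMyb, against 488 and 515 CPM in shLuc, a log2 fold change of -0.27. Per kilobase of coding sequence, Rpl22l1 stood at 38.7% and 42.9% of Rpl22 in shMyb and 48.3% and 46.8% in shLuc. The groups did not overlap in this ratio, which was 0.22 lower in shMyb on the log2 scale.

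For Rps27l over Rps27 the log2 ratio of counts was 5.74 and 5.82 in shMyb and 6.46 and 6.23 in shLuc, but it rests on the few counts of Rps27. Rpl7l1 had 128 and 126 CPM in shMyb, against 158 and 164 CPM in shLuc, a log2 fold change of -0.34 beside -0.35 in Rpl7. Its ratio to Rpl7 overlapped between the groups, with 8.18% and 8.45% in shMyb and 8.31% and 8.21% in shLuc per kilobase of coding sequence. Rpl36al, a close copy of Rpl36a, had 123 and 126 CPM in shMyb, against 147 and 150 CPM in shLuc, a log2 fold change of -0.26. Its partner Rpl36a had 334 and 337 CPM in shMyb, against 411 and 428 CPM in shLuc, a log2 fold change of -0.32. The ratio of Rpl36al to Rpl36a was 36.7% and 37.3% in shMyb and 35.9% and 35.1% in shLuc, 0.06 higher in shMyb on the log2 scale. Of these ratios within libraries, Rpl7l1 over Rpl7 gave p = 1 and the others the smallest p an exact permutation test of 2 against 2 allows, 0.333.

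Rpl3l, the form of Rpl3 made in heart and skeletal muscle, was the 1 member that rose, against 30.6% of all tested genes called higher. It had 251 and 260 counts in shMyb, against 134 and 162 counts in shLuc, or 6.44 and 6.92 CPM in shMyb against 3.35 and 3.72 CPM in shLuc. The groups were well apart, and the log2 fold change was 0.91 ± 0.125 (SE, adjusted p = 7.81e-07). No 50-base window of Rpl3l occurred in another gene. Rpl3 had 1446 and 1385 CPM in shMyb, against 1700 and 1764 CPM in shLuc, a log2 fold change of -0.29. Rpl3l nevertheless stayed a trace beside Rpl3, at 0.441% and 0.495% of it in shMyb and 0.195% and 0.209% in shLuc per kilobase of coding sequence.

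Rps4y2, an older symbol of Rps4l, which the annotation lists as a transcribed pseudogene, had 10 and 13 counts in shMyb, against 8 and 4 counts in shLuc. It passed the filter on low counts through the shMyb libraries, and its log2 fold change of 1.05 was not called (adjusted p = 0.109). Without shLuc replicate 1 it was called higher (1.67, adjusted p = 0.0332), and with the narrow abundance trend removed it was at -0.0926. Rpl10l and Rpl39l, the copies made in testis, had no count in any library. Rps19bp1 had 17.6 and 18.3 CPM in shMyb, against 22.2 and 22.7 CPM in shLuc, and fell with a log2 fold change of -0.32 (adjusted p = 6.95e-05).

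**Figure D5:**
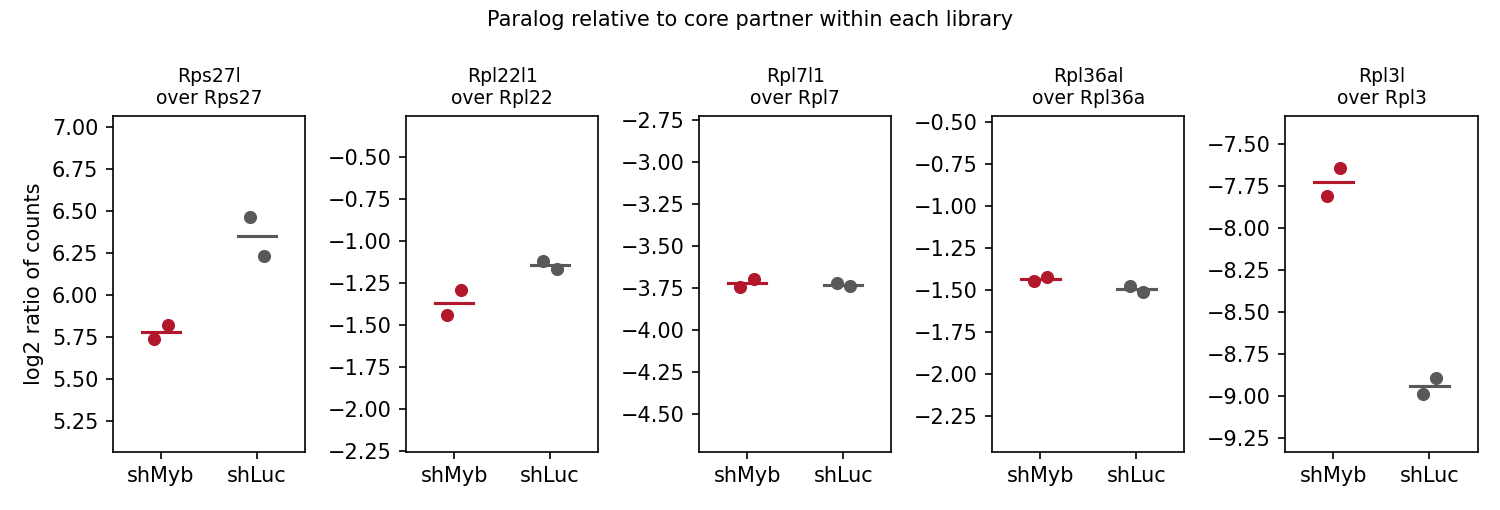
Log2 ratio of the counts of a paralog to those of its core partner (y axis) in the 2 shMyb and 2 shLuc libraries (x axis). Each pair shown has 1 panel, all panels span the same range, points are libraries and bars are means. The tested pair of Rps4y2 and Rps4x is not shown. Rps27l and Rpl22l1 are lower relative to their partners in shMyb, Rpl7l1 and Rpl36al nearly level, and Rpl3l higher.

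Ribosomal proteins outside the symbol rule fell too. Gnb2l1, also named Rack1, a scaffold on the small subunit, had 1784 and 1637 CPM in shMyb, against 2065 and 2158 CPM in shLuc (-0.30). Fau, which joins a small subunit protein to a ubiquitin-like one, had 506 and 502 CPM in shMyb, against 532 and 549 CPM in shLuc (-0.10, adjusted p = 0.0195). The Fau call was lost with the replicate number as a block (adjusted p = 0.104), without shMyb replicate 2 (0.0763) or shLuc replicate 2 (0.209), with library totals (0.299) and with either abundance trend removed (0.213 to 0.885).

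Translation factors and other genes whose messengers carry a TOP tract fell less uniformly. Of 17 such genes, 15 fell, 1 rose and 1 was not called, at a median log2 fold change of -0.22. Among all tested genes 31.7% were called lower, and among non-member genes at 300 CPM or more 52% were. The lowest p-values belonged to the elongation factor subunits Eef1d (-0.39) and Eef1g (-0.38), to Btf3 (-0.35), which guards nascent chains, and to the nucleolar chaperone Npm1 (-0.37). The 1 that rose was Eif4a2, a helicase of initiation (0.19). With the broad abundance trend removed 11 of the 17 were lower and 3 higher, and the very abundant elongation factors Eef2 and Eef1a1, called lower before, were then called higher. Of 12 chaperones and assembly partners of ribosomal proteins, 9 fell and 3 were not called, at a median of -0.27, against 31.7% of all tested genes called lower. Nap1l1, called lower, is counted both in this list and among the TOP genes. Rrs1 (-0.42), which loads the 5S particle, Grwd1 (-0.43) and Heatr3 (-0.34), partners of Rpl3 and Rpl5, and Tsr2 (-0.37), the escort of Rps26, had the lowest p-values. With a length and GC trend removed their list stood at a median of -0.14, and its 9 lower genes were not the same, since Nap1l1 (adjusted p = 0.0568) and Bccip (0.0672) lost their calls and Aamp and Nvl gained them.

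Genes that control these messengers went both ways, with 4 of 9 lower, 3 higher and 2 not called, shares near the 31.7% lower and 30.6% higher of all tested genes. Mtor, the kinase itself, had 699 and 717 CPM in shMyb, against 265 and 259 CPM in shLuc, a log2 fold change of 1.43 (adjusted p = 1.85e-20). Its messenger was thus far higher in shMyb, which says nothing of its activity. Myc had 225 and 214 CPM in shMyb, against 325 and 324 CPM in shLuc, a log2 fold change of -0.57. Larp4, which protects messengers at their 3′ ends, was at -0.27, and Eif4ebp1, a repressor of initiation that mTOR inactivates, at -0.27.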

How the data were processed

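Raw read counts per gene symbol, 1 table for each of the 4 libraries, were used as the authors deposited them. FastQC, STAR, HTSeq, DESeq2 and mm10 are named in the submitters' processing notes, without versions or roles. Annotation, strand setting and filters: not given in the sources used here, although per the labels' protocols the kit keeps strand. Without that setting, reads of a gene and of an overlapping antisense gene may not be separated. Groups and replicate numbers were taken from the sample titles.

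The test was edgeR's quasi-likelihood F test (edgeR 4.0.16, R 4.3.3; TMM scaling, glmQLFit with robust=TRUE, glmQLFTest, group alone as the term). A filterByExpr step at a minimum count of 10 left 12610 of 16832 genes with a count, 83 of the 86 members among them. Calls were made at a Benjamini-Hochberg adjusted p below 0.05 over those 12610. CPM use TMM-scaled totals; ± is the SD over libraries unless marked SE. All 86 members matched GENCODE M21 (GRCm38, that is mm10) by symbol or older symbol, and 65 had a start sequence in RefSeq GRCm38.p6. No protein sequences were used here. Alternatives were RLE scaling, library totals, other filters, DESeq2 1.42.0, limma-voom (limma 3.58.1), robust=FALSE, a replicate block, abundance trends (lowess spans 0.3 and 0.05), a length and GC trend, an adjusted p below 0.01 and leaving out each library.

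Genes named were tested paralogs with their partners, members not called or higher, the 8 lowest and 8 highest core fold changes, the 5 most and least abundant core genes, members of the stalk, 5S, signalling, ubiquitin fusion and Diamond-Blackfan groups, and up to 4 genes a related list by smallest p; members outside this rule stand as examples of their group. Values of some genes under the rule are not reported here. The members and lists were chosen with earlier results of these data known.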

Additional observations from a re-analysis of the deposited data

How the results depend on the processing

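Of the 83 tested members, 79 were called lower and 1 higher. Under RLE scaling, limma-voom, robust=FALSE and the 1 CPM filter (82 tested) these counts were the same, and under the other settings, the narrow abundance trends apart, 76 to 80 were lower. With replicate number as a block they were 79 and 1, and no member's call changed. The labels do not say that the numbers pair the libraries, and deviations of same-numbered libraries correlated at -0.17 over 12610 genes and -0.61 over the 83 members. The crossed pairing, added after seeing the data, gave 80 lower and 1 higher. The core median moved to -0.26 with library totals, -0.21 and -0.25 with the abundance trend removed (all genes and without the members), -0.19 and -0.23 with the narrower one, also added later, and -0.25 with length and GC removed. Leaving out each library gave -0.36 to -0.29, with 77 to 79 members lower and 1 to 2 higher. Library totals moved the share of calls that were lower to 39.9%, against 50.9%. Rps27, never called, turned to 0.0267 (totals), 0.0452 (length and GC) and 0.11 (without shLuc replicate 2). Rps4y2 turned to -0.0926 and -0.0958 with the narrow trend. The cause was not tested. Rpl30, Rpl23a and Rpl23 also lost their calls with length and GC removed. With 2 libraries a group, differences near the gap between duplicates, as in Fau, cannot be resolved.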
